A study of Mus musculus with 4 samples.

Results

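The 5 members of the miR-200 family (miR-200a-3p, miR-200b-3p, miR-200c-3p, miR-141-3p and miR-429-3p), miR-203-3p and miR-205-5p were examined in mouse plasma. They were chosen by name as miRNAs of epithelial cells and not by their signals, though earlier results of these data were known. Each was found by its miRBase identifier, which gave 7 of the 1265 probes in the deposited table. Cell-free RNA came from 2 aged mice of 23 to 24 months and 2 young mice of 6 to 7 weeks, all of them male C57BL6/J mice with no transgene or treatment named. The RNA of each mouse was labelled with the dye Hy5 and hybridized to 1 chip of the 3D-Gene mouse miRNA type, on which each probe is directed at a mature miRNA. The values are 1-colour signal intensities on a linear scale, with a median of 25 over what each array lists, and probes without a value are blank.

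A mature miRNA guides the silencing complex to messenger RNAs that pair with its seed, the bases 2 to 8 from the 5′ end, and lowers their translation and stability. The miR-200 family is abundant in epithelial cells, where it represses the transcription factors Zeb1 and Zeb2 and so keeps E-cadherin expressed. Zeb1 and Zeb2 in turn repress the miR-200 genes, a mutual inhibition that is best known from the epithelial to mesenchymal transition. miR-203 is enriched in skin and other stratified epithelia, where it represses p63 as keratinocytes leave the proliferating layer. miR-205 is found in the basal cells of stratified and glandular epithelia and shares Zeb1 and Zeb2 as targets with the miR-200 family. Plasma carries miRNAs from many tissues in vesicles and protein complexes, so the levels below do not name the cell of origin.

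The mature sequences of all 7 were taken from RefSeq (assembly GRCm38.p6, 7 of 7 names matched), and are shown because the family divides by its seed and because close members could share probe signal. Each is written 5′ to 3′ with the seed in capitals.
miR-200a-3p: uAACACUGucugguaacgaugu
miR-141-3p: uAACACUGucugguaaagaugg
miR-200b-3p: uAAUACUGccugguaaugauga
miR-200c-3p: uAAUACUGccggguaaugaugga
miR-429-3p: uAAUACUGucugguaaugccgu
miR-203-3p: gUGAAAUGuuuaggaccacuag
miR-205-5p: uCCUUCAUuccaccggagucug

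The 7 miRNAs fell into 4 seed groups. miR-200a-3p and miR-141-3p shared 1 seed, and miR-200b-3p, miR-200c-3p and miR-429-3p shared another that differs from it by the substitution C4U, counted from 1 at the 5′ end of miR-200a-3p. No other mature miRNA among the 1679 in the table held any of the 4 seeds. Outside the seed, miR-141-3p differed from miR-200a-3p by C17A and U22G, and miR-200c-3p differed from miR-200b-3p by U11G and A22G over the 22 positions they share. miR-429-3p differed from miR-200b-3p by C9U, A19C, U20C and A22U. With 2 differences in 22 positions, the signals of miR-200a-3p and miR-141-3p, and of miR-200b-3p and miR-200c-3p, could include hybridization from the partner, and the specificity of these probes was not measured here.

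The family comes from 2 loci. Mir200b, Mir200a and Mir429 lie within 1846 bases at chr4:156053905-156055750 (GRCm38.p6), inside the long non-coding RNA gene Gm13648, with the protein-coding gene Ttll10 at 3087 bases from Mir429. Mir200c and Mir141 lie within 477 bases at chr6:124717914-124718390, between Phb2 and Ptpn6, inside no other annotated gene. Mir203 lies at chr12:112130880-112130955, between Aspg and Kif26a, and Mir205 at chr1:193507463-193507530, inside the long non-coding RNA gene Mir205hg.

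The 4 arrays differed in how many probes they list and in the level of what they share. A value was listed for 563 and 578 probes on the aged arrays, against 620 and 439 probes on the young arrays. The 362 miRNAs listed on all 4 arrays had median signals of 62.1 and 55.95 on the aged arrays, against 67.9 and 35.15 on the young arrays. The array of young mouse 2, which had the shortest list, was the lowest. Of 12 miRNAs of blood cells, liver and muscle listed for a check of the plasma label, 3 were tied to a probe by name and were listed on all 4 arrays. Their names came from signals that the study printed for its lowest and highest aged over young ratios. Being named thus required a difference between the ages. None of the red cell, liver or endothelial miRNAs among these 12 could be looked up, so the 3 do not check the plasma label. The myeloid miR-223-3p had signals of 429.9 and 499.2 in aged mice, against 269.1 and 141.4 in young mice. The muscle miRNAs lay the other way, with 56.8 and 159.2 in aged mice, against 525 and 214.8 in young mice for miR-1a-3p, and 67.8 and 142.2 in aged mice, against 362.6 and 155.9 in young mice for miR-133a-3p. Epithelial miRNAs outside the 7 (a list of 12) and the opposite strands of the 7 hairpins were tied to no probe by name and were not analysed here.

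All 7 miRNAs were listed in at least 2 plasma samples, and 5 of them in all 4. Aged mice 1 and 2 had a value for 7 and 6 of the 7, against 6 and 5 of the 7 in young mice 1 and 2. Over all probes, the listed share was 44.5% and 45.7% on the aged arrays, against 49.0% and 34.7% on the young arrays, so on every array the 7 miRNAs were listed more often than the average probe. Listing on all 4 arrays applied to 28.6% of all probes. miR-200a-3p, miR-200b-3p, miR-429-3p, miR-203-3p and miR-205-5p were the 5 with complete values, and both incomplete members, miR-200c-3p and miR-141-3p, came from the chromosome 6 locus. All 3 miRNAs of the chromosome 4 locus were complete. The lowest listed value differed between arrays, from 7 to 9.5, and the signal of miR-429-3p in young mouse 2, 8.4, lay below 9.5. Its completeness thus depended on the lower floor of that array.

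miR-200c-3p (MIMAT0000657) had signals of 12.9 and 9.7 in the aged mice and was blank in both young mice. It was the only one of the 7 with a value at a single age. This pattern, both aged arrays and neither young array, was held by 28 of 1265 probes (2.21%). Both signals lay close to the low end of their arrays, at 1.84 and 1.02 times the lowest listed value, and of the 249 probes whose highest signal did not exceed 12.9, only 4 were listed on all 4 arrays. A blank gives no level, so no ratio between the ages is given here.

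miR-141-3p (MIMAT0000153), the neighbour of miR-200c in the genome and the seed partner of miR-200a-3p, had a signal of 16.3 in aged mouse 1, against 12.6 in young mouse 1, and was blank in aged mouse 2 and young mouse 2. The miRNA was thus seen once at each age. The pattern of both number 1 arrays and neither number 2 array was held by 48 probes (3.79%). Among the 351 probes with a highest signal of no more than 16.3, 94 (26.8%) were listed on 2 arrays and 11 (3.13%) on all 4.

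**Figure D1:**
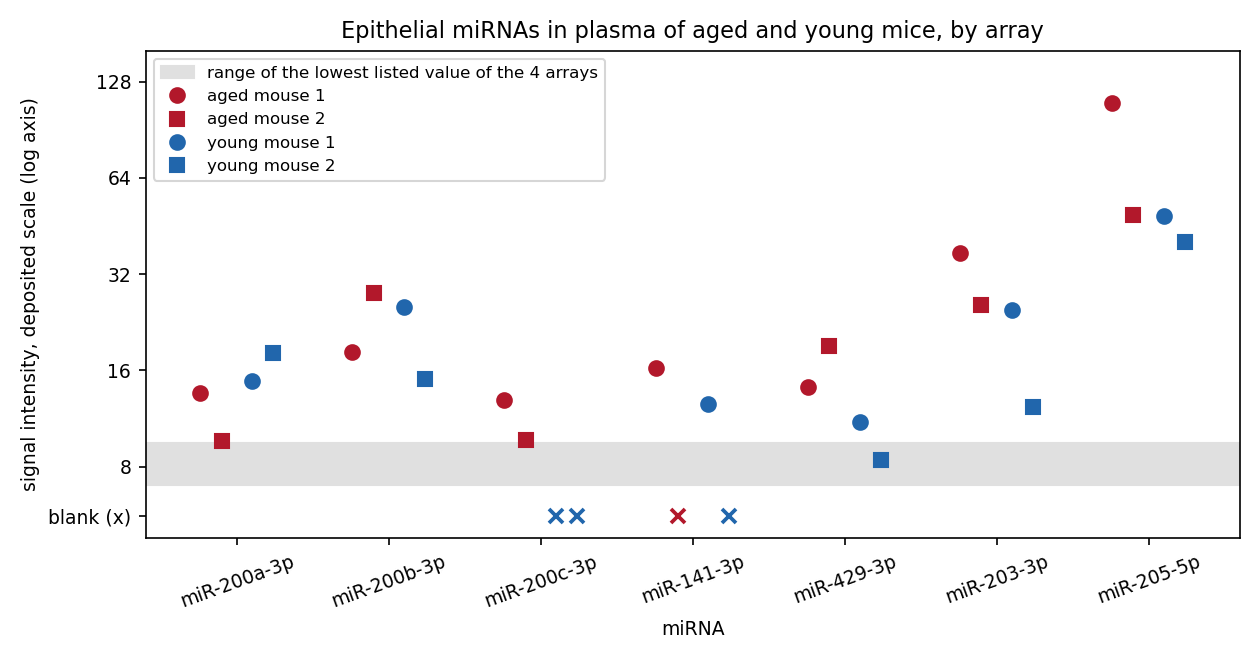
Signal intensity (deposited scale, log axis) of the 7 miRNAs on the arrays of 2 aged mice (red) and 2 young mice (blue), with circles for mouse 1, squares for mouse 2 and crosses for blanks. The grey band spans the lowest listed value of the 4 arrays, from 7 to 9.5. miR-200c-3p has a value in aged mice alone, at 12.9 and 9.7, and miR-205-5p has the widest gap between the aged mice, at 109.6 and 48.9.

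Within the chromosome 4 cluster, the 3 miRNAs did not share 1 direction between the ages. miR-200a-3p (MIMAT0000519) had signals of 13.6 and 9.6 in aged mice, against 14.8 and 18.1 in young mice. Both aged mice lay below both young mice, by a narrow margin of 13.6 against 14.8. The lower aged signal, 9.6, was 1.01 times the lowest value listed on its array. The means were 11.6 ± 2.83 in aged and 16.5 ± 2.33 in young mice (SD, n = 2 each). The aged over young difference was -0.52 on the log2 scale (SE 0.60, 95% interval -1.69 to 0.66, limma adjusted p = 0.88).

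miR-200b-3p (MIMAT0000233), which targets Zeb1 and Zeb2 through the second seed of the family, had signals of 18.3 and 28 in aged mice, against 25.3 and 15 in young mice. The ages overlapped, with the highest and the third highest signal in aged mice. The means were 23.2 ± 6.86 in aged and 20.2 ± 7.28 in young mice (SD, n = 2 each), and the log2 difference was 0.22 (SE 0.60, 95% interval -0.96 to 1.39, limma adjusted p = 0.89).

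miR-429-3p (MIMAT0001537), which carries the same seed as miR-200b-3p, had signals of 14.2 and 19.1 in aged mice, against 11 and 8.4 in young mice. Both aged mice lay above both young mice. The means were 16.7 ± 3.46 in aged and 9.7 ± 1.84 in young mice (SD, n = 2 each), a ratio of 1.72, and the log2 difference was 0.78 (SE 0.60, 95% interval -0.40 to 1.95, limma adjusted p = 0.84). The lower young signal, 8.4, was 1.04 times the lowest value listed on its array.

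miR-203-3p (MIMAT0000236), the keratinocyte differentiation miRNA, had signals of 37.2 and 25.7 in aged mice, against 24.7 and 12.3 in young mice. The groups were apart by only 25.7 against 24.7, and the young mice differed from each other by 1.01 on the log2 scale, against 0.53 between the aged mice. Over the 362 miRNAs, the median gap was 0.87 between the young mice (quartiles 0.60 and 1.24) and 0.40 between the aged mice. The means were 31.5 ± 8.13 in aged and 18.5 ± 8.77 in young mice (SD, n = 2 each), a ratio of 1.7. The log2 difference of 0.83 (SE 0.60, 95% interval -0.35 to 2.00, limma adjusted p = 0.84) was the highest of the 5 on the deposited scale, but not with quantile normalization, where miR-429-3p had 0.75 and miR-203-3p 0.60, or with a pseudocount of 16, where miR-205-5p had 0.58 and miR-203-3p 0.47. Leaving out young mouse 1 gave 1.33, and leaving out young mouse 2 gave 0.32. The median difference over the 362 miRNAs moved the same way, to 0.73 and -0.14, so this shift was not particular to miR-203-3p.

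miR-205-5p (MIMAT0000238), the basal cell miRNA, had signals that were 5 to 15.7 times the lowest listed value of the same array, and it was the only one of the 5 tested whose mean log2 signal lay above the median of the 362. Its signals were 109.6 and 48.9 in aged mice, against 48.7 and 40.5 in young mice. Aged mouse 1 stood apart from the other 3 mice, and aged mouse 2 differed from young mouse 1 by 48.9 against 48.7. The means were 79.3 ± 42.9 in aged and 44.6 ± 5.80 in young mice (SD, n = 2 each), a ratio of 1.78, with a log2 difference of 0.72 (SE 0.60, 95% interval -0.45 to 1.90, limma adjusted p = 0.84). Without aged mouse 1 the difference was 0.14, and without aged mouse 2 it was 1.30. The gap between the aged mice was 1.16 on the log2 scale, whereas the median gap between them over the 362 miRNAs was 0.40 (quartiles 0.22 and 0.67).

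None of the 5 tested miRNAs passed the threshold of 0.05 for the adjusted p. In the whole table, limma with Benjamini-Hochberg adjustment called 0 of 362 higher in aged mice (0%) and 1 of 362 lower (0.276%), the probe MIMAT0024863 with a log2 difference of -2.57 (adjusted p = 0.0072), while 22 had an unadjusted p under 0.05, none of them among the 5. The intervals of all 5 differences include 0, and each also includes a difference of 1 log2 unit in the direction of its estimate, so equal levels and a change of that size could not be told apart with 4 arrays. The median log2 difference was 0.72 over the 5 miRNAs and 0.31 over all 362. Counted from the highest difference, miR-203-3p ranked 52, miR-429-3p 60, miR-205-5p 70 and miR-200b-3p 207 of 362, and miR-200a-3p ranked 40 counted from the lowest.

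**Figure D2:**
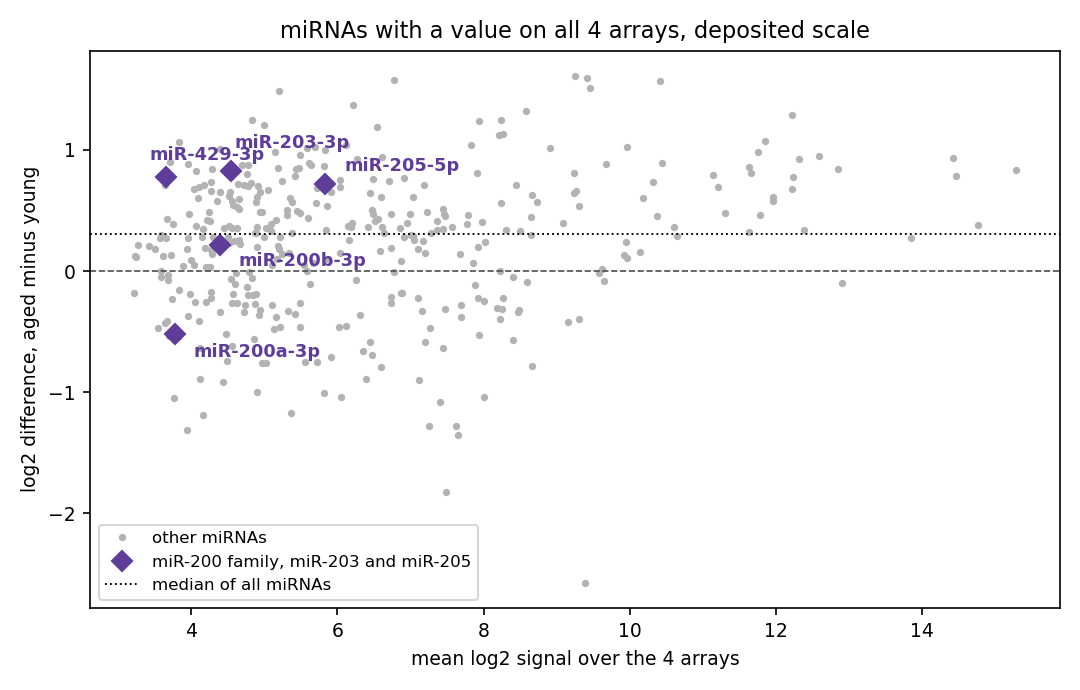
Aged minus young log2 difference (vertical axis) against the mean log2 signal over the 4 arrays (horizontal axis) for the 362 miRNAs with a value on every array, each point 1 miRNA, with the 5 epithelial miRNAs as purple diamonds. The dotted line is the median of all miRNAs, 0.31. miR-203-3p, miR-429-3p and miR-205-5p lie at 0.83, 0.78 and 0.72, inside the spread of the grey points, and miR-200a-3p lies at -0.52.

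Of the 5 miRNAs, 3 had both aged mice above both young mice (miR-429-3p, miR-203-3p and miR-205-5p) and 1 had both below (miR-200a-3p). Over the 362 miRNAs, 19.9% were separated in the higher direction and 9.94% in the lower direction. The separation of the 5 depended on the scale between arrays. When the medians of the 362 shared miRNAs were set equal, the median difference of all of them was 0.034 in place of 0.31, and 21.8% were separated in the higher and 22.7% in the lower direction. On that scale only miR-203-3p of the 5 remained separated, with signals of 32.1 and 24.6 in aged mice, against 19.5 and 18.8 in young mice. miR-205-5p then had 94.7 and 46.9 in aged mice, against 38.5 and 61.8 in young mice, and miR-429-3p 12.3 and 18.3 in aged mice, against 8.69 and 12.8 in young mice. miR-200a-3p had 11.8 and 9.21 in aged mice, against 11.7 and 27.6 in young mice, so that its young mice differed more from each other than on the deposited scale. On the quantile-normalized scale, miR-429-3p and miR-203-3p were separated, both higher in aged mice. Of the 362 miRNAs, 97 were then separated in the higher and 76 in the lower direction. Scaling on the brightest miRNAs separated the same 2, with 103 of the 362 separated in the higher and 80 in the lower direction. On both scales, separation was thus common among all miRNAs.

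With equal medians, the log2 differences were -0.79 for miR-200a-3p, -0.054 for miR-200b-3p, 0.51 for miR-429-3p, 0.56 for miR-203-3p and 0.45 for miR-205-5p (SE 0.42 each, limma adjusted p = 0.39, 0.98, 0.59, 0.56 and 0.63). The sign of miR-200b-3p was reversed on this scale, so its direction was not settled by these data. The other 4 kept their sign, but on this scale the 95% intervals of all 5 included 0, so their direction was not settled either. With quantile normalization, miR-429-3p had a difference of 0.75 (SE 0.24, limma unadjusted p = 0.027, adjusted p = 0.32), the only one of the 5 whose 95% interval did not include 0, at 0.13 to 1.37.

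**Figure D3:**
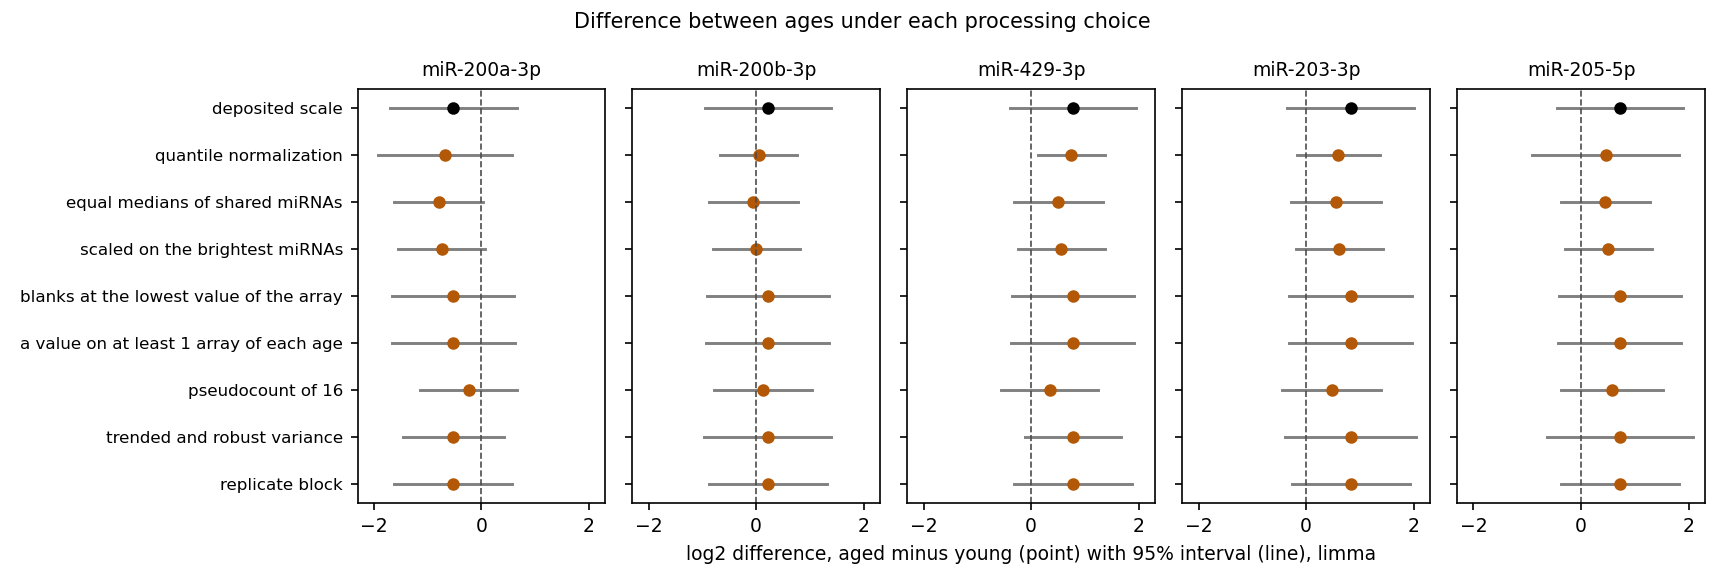
Aged minus young log2 difference (horizontal axis) of the 5 tested miRNAs, 1 panel each, as a point with its 95% interval from limma. The deposited scale is at the top, with other processing choices below it. The filter on low signals, the one-way test and the fits with 1 array left out are not shown. The points of miR-200a-3p stay left of 0 and those of miR-429-3p, miR-203-3p and miR-205-5p right of 0, while miR-200b-3p lies between -0.054 and 0.22. The interval of miR-429-3p under quantile normalization, 0.13 to 1.37, does not include 0.

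Ratios between 2 miRNAs on the same array do not change when that array is multiplied by a constant factor, and were formed after the values had been seen. They can change with quantile normalization, and with the background correction, which the sources used here do not state. Of the 10 pairs among the 5 miRNAs, 4 had ratios that separated the ages, whereas 48.4% of the 65341 pairs among all 362 miRNAs did so in either direction, so the share among the 10 was close to that of any pair. Within the chromosome 4 cluster, the ratio of miR-429-3p to miR-200a-3p was 1.04 and 1.99 in aged mice, against 0.743 and 0.464 in young mice. The ratio of miR-429-3p to miR-200b-3p, which share a seed, was 0.776 and 0.682 in aged mice, against 0.435 and 0.56 in young mice. In both ratios the aged mice were above the young mice, by 1.30 and 0.56 on the log2 scale. Their numerator, miR-429-3p, was 1.04 times the lowest listed value of the array in young mouse 2. The ratio of miR-200b-3p to miR-200a-3p overlapped between the ages, at 1.35 and 2.92 in aged mice, against 1.71 and 0.829 in young mice.

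The other 2 separated ratios, like that of miR-429-3p to miR-200a-3p, had miR-200a-3p as the denominator. The signal of miR-200a-3p in aged mouse 2 was close to the lowest listed value of that array. miR-203-3p over miR-200a-3p was 2.74 and 2.68 in aged mice, against 1.67 and 0.680 in young mice. miR-205-5p over miR-200a-3p was 8.06 and 5.09 in aged mice, against 3.29 and 2.24 in young mice. Both were higher in aged mice, by 1.35 and 1.24 on the log2 scale. The 3 ratios among miR-429-3p, miR-203-3p and miR-205-5p overlapped between the ages, with mean differences of 0.05 to 0.11. In an exact permutation test of 2 mice against 2, the smallest two-sided p is 0.333, which is what each of the 4 separated ratios reached.

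**Figure D4:**
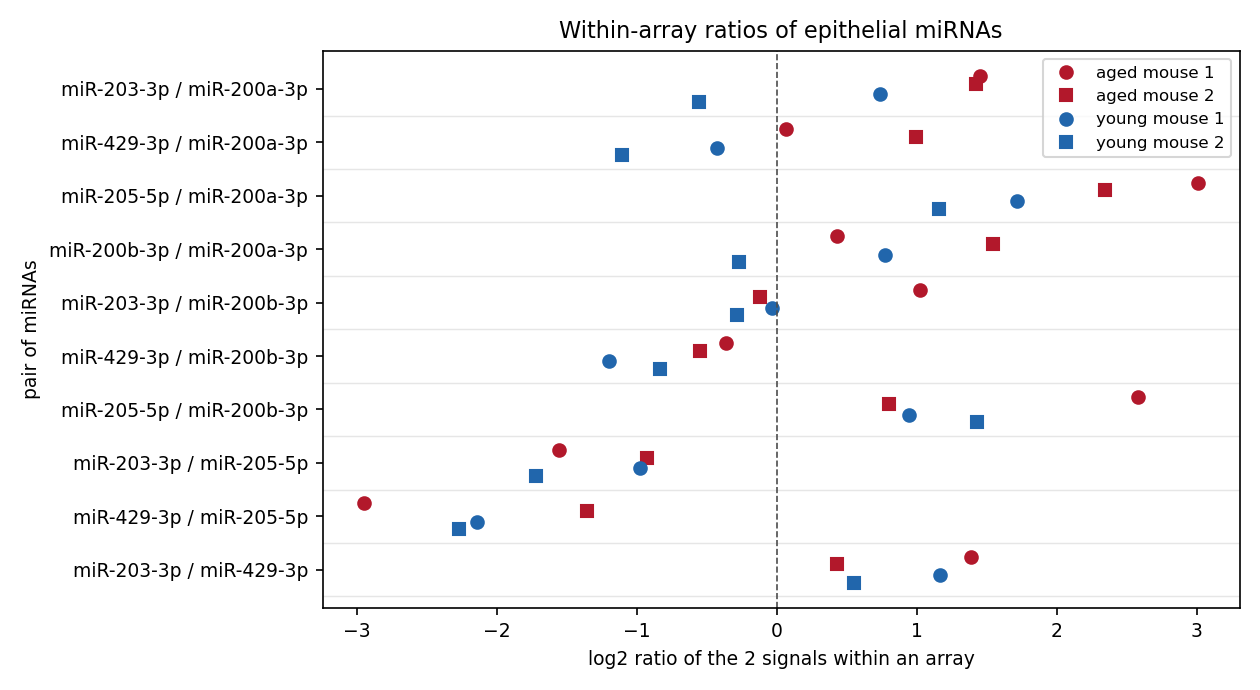
Log2 ratio of the signals of 2 miRNAs on the same array (horizontal axis) for the 10 pairs among the 5 epithelial miRNAs, in aged (red) and young (blue) mice, with circles for mouse 1 and squares for mouse 2. In the upper 3 rows, all with miR-200a-3p as the second miRNA, both aged mice lie right of both young mice.

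The profiles over the 4 arrays were also set against each other and against the other miRNAs that have a name, 28 candidates for each, by the root-mean-square distance of the centred log2 signals. For miR-200b-3p, the nearest was miR-429-3p at 0.32, from the same cluster and with the same seed, before miR-721 at 0.51 and miR-203-3p at 0.52. For miR-429-3p, miR-721 at 0.22 and miR-223-3p at 0.31 were nearest, ahead of miR-200b-3p at 0.32. miR-203-3p was nearest to miR-5620-5p at 0.16, miR-346-3p at 0.17 and miR-5621-5p at 0.29. miR-205-5p was nearest to miR-5620-5p and miR-203-3p, both at 0.35, and to miR-346-3p at 0.40. miR-200a-3p had no other epithelial miRNA among its nearest 3, which were miR-6412 at 0.41, miR-351-5p at 0.44 and miR-6364 at 0.49. These distances describe 4 arrays, and the named miRNAs had mostly been named by the study for a difference between the ages, so they are not a sample of all miRNAs.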

How the data were processed

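The authors deposited signal intensities from 3D-Gene mouse miRNA chips, hybridized with Hy5-labelled RNA that was purified from plasma with a Norgen kit, with 1 array for each of 2 aged and 2 young mice. The sources used here do not state how the signals were scaled and background-corrected, or when a value was listed. Another 8 intensity columns carry headings that identify no mouse and were left out. The study calls its arrays duplicate experiments and the labels number the mice, so the p-values measure the spread between these arrays, and the number of arrays limits the precision.

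Signals were taken as log2 values without a pseudocount for the 362 probes listed on all 4 arrays. Aged and young arrays were compared with limma 3.58.1 in R 4.3.3 (linear model with moderated variance and no block). The p-values were adjusted by Benjamini-Hochberg over these 362 and read at 0.05. The moderated variance came out equal for every miRNA, hence 1 SE. The step was tested on simulated data. Other values came from Python 3.11.15 with numpy 2.4.6, pandas 2.3.3, scipy 1.17.1 and matplotlib 3.10.9.

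The members, lists and tests were chosen with earlier results of these data known. The text names all 7 miRNAs, the 3 miRNAs of the plasma check that were tied to a probe, the probe past the threshold and, for each tested miRNA, the 3 named miRNAs with the nearest profile. Names of 24 other probes came from matching the signals printed in the study, and identifiers of the remaining 1234 probes are not paired with names here, so the list of 12 other epithelial miRNAs was not tested. Alternatives were quantile normalization, equal medians, scaling by the 439 brightest miRNAs per array, a filter on low signals, 2 treatments of blanks, a pseudocount of 16, a trended and robust variance, a replicate block, the one-way test named in the study's methods, and each array left out.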

Additional observations from a re-analysis of the deposited data

How the results depend on the processing

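Of 92 alternative values, 74 kept their direction, their side of the threshold or their count within 1.5 times. Another 3 reversed (miR-200b-3p) and 15 counts moved. With 2 mice of each age, none of the 5 passed the adjusted threshold. Their adjusted p ranged from 0.39 to 0.93 for miR-200a-3p, 0.86 to 0.996 for miR-200b-3p, 0.32 to 0.93 for miR-429-3p, 0.45 to 0.93 for miR-203-3p and 0.57 to 0.93 for miR-205-5p. miR-200b-3p was 0.22 on the deposited scale and -0.054 with equal medians, and ranged from -0.16 to 0.59 when 1 array was left out, being below 0 without young mouse 2 and without aged mouse 2. The other ranges with 1 array left out were -0.77 to -0.27 for miR-200a-3p, 0.56 to 0.99 for miR-429-3p, 0.32 to 1.33 for miR-203-3p (lowest without young mouse 2, highest without young mouse 1, where limma gave an interval of 0.28 to 2.38 and an adjusted p = 0.067) and 0.14 to 1.30 for miR-205-5p. With blanks set to the lowest value of the array, the differences were 0.57 for miR-200c-3p and 0.30 for miR-141-3p (SE 0.58, limma adjusted p = 0.93 each). Over all miRNAs tested, limma called 1 on the deposited scale, 0 with quantile normalization (53 at an unadjusted p under 0.05), 16 with equal medians (4 higher and 12 lower in aged mice), 18 when scaled on the brightest miRNAs (6 higher and 12 lower), 2 with blanks at the lowest value, 0 with a trended and robust variance (15 unadjusted), and 0 to 50 with 1 array left out, the 50 without young mouse 1 (49 higher and 1 lower), and the one-way test called 0 (7 unadjusted). Fits with 1 array left out took their spread from the other age alone and assume that the lone mouse varies like it. The cause of these shifts was not tested. Only miR-205-5p passed the filter on low signals. With equal medians, the shared floor was the highest of the arrays' lowest listed values. It was reached by 4 and 4 of the 7 on the aged arrays, against 3 and 5 on the young arrays. The share of all probes reaching it was not counted. The number of the 5 whose ages did not overlap, 4 on the deposited scale, was 1 with equal medians, 2 with quantile normalization and 2 when scaled on the brightest. The mice share the numbers 1 and 2, with a correlation of 0.34 between the deviations of same-numbered arrays, and no source used here says that they were paired. The replicate block (1 call), treatments of blanks, variance setting, one-way test and filter cannot change the 5 differences (-0.52 to 0.83). Direction was not tested there.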
